A study of Mus musculus with 24 samples.

Results

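Genes of the proteasome were examined in the striatum of 24 mice. They were the protein-coding genes whose symbols begin with Psma, Psmb, Psmc, Psmd, Psme or Psmf and that had at least 240 reads summed over the 24 libraries, which gave 44 of the 54532 genes in the deposited table. Another 2 protein-coding genes with these prefixes fell under the minimum, Psmb11 with 130 reads and Psma8 with 213, and 4 rows that were not protein-coding were left out. The members closest to the minimum were Psme2b with 722 reads, Psmb9 with 934 and Psmb8 with 1395. One member, Psmc3ip, matches by name alone: it encodes a factor of meiotic recombination and is no proteasome subunit.

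The mice had 4 genotypes on the C57BL/6 strain, with 6 animals each (3 male, 3 female) and 1 library per animal. WT animals carried neither change, TyrobpKO animals lacked Tyrobp, the gene of an adaptor protein of microglial surface receptors, Q175 animals were heterozygous for an Htt knock-in allele with a lengthened CAG repeat, which models Huntington's disease, and Q175_TyrobpKO animals had both changes. The labels name no treatment and no age. Every library is RNA from the whole striatum of 1 hemisphere, so fewer cells of a type and less RNA per cell cannot be told apart. The animal numbers in the labels carry prefixes: all Q175 animals share one with WT replicate 3 and no other WT animal, while TyrobpKO and Q175_TyrobpKO animals share another.

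The proteasome is the main machine that degrades ubiquitin-tagged proteins in the cell. Its 20S core is a barrel with outer rings of alpha subunits, which gate the entry, and inner rings of beta subunits, of which Psmb5, Psmb6 and Psmb7 carry the constitutive proteolytic sites. The 19S regulatory particle binds tagged proteins, removes the ubiquitin and, with a ring of ATPases, unfolds and feeds the substrate into the core. Other caps can take its place: PA28, built from the products of Psme1 and Psme2, opens the core without ATP or ubiquitin and is known as an interferon-inducible complex of antigen processing. Interferon also induces Psmb8, Psmb9 and Psmb10, which replace Psmb5, Psmb6 and Psmb7 in newly built cores to form the immunoproteasome. In Huntington's disease, proteasome function is of interest because inclusions of mutant huntingtin hold ubiquitin and proteasome subunits.

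By role, the members were 7 genes of the alpha ring, 7 of the constitutive beta ring, the 3 immunoproteasome genes, 6 of the 19S ATPases, 11 other 19S subunits, 3 chaperones of 19S assembly (Psmd5, Psmd9 and Psmd10), 5 activators (Psme1, Psme2, Psme2b, Psme3 and Psme4), the inhibitor Psmf1, and Psmc3ip. All 44 passed the filter on low counts and were among the 19667 genes tested. Library totals were 25482686 to 34626720 counts. Tyrobp was at 6.56 to 9.89 CPM (read counts relative to library size, scaled by TMM) in WT and 5.69 to 11.8 in Q175, against 0.214 to 0.448 in TyrobpKO and 0.218 to 0.323 in Q175_TyrobpKO, so each library matched its Tyrobp label. Among marker genes, microglial genes summed to 424 to 522 CPM in WT and 421 to 546 in Q175, and choroid plexus genes to 23.5 to 62.1 in WT and 25.7 to 4016 in Q175, where replicate 3 was the highest. Of 10 markers of striatal projection neurons, 9 were lower in Q175 than in WT at an adjusted p under 0.05.

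Striatal tissue expressed the constitutive proteasome at an even, high level and the immunoproteasome at a low one. Per kilobase of gene model, the mean level over the 24 libraries was 15.2 to 47.1 CPM in the 14 genes of the constitutive core. The 17 structural 19S genes lay between 9.17 (Psmd11, a lid subunit) and 81.5 (Psmc5, an ATPase). Psmb8 stood at 0.756 and Psmb9 at 0.377 CPM per kilobase, while Psmb10, at 7.87, was close to Psme1 (7.93) and Psme2 (8.68). Psme3, which forms the nuclear form of the PA28 cap, was at 29.9 and Psme4, the single-chain activator PA200, at 9.08. The inhibitor Psmf1 was at 4.56.

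**Figure D1:**
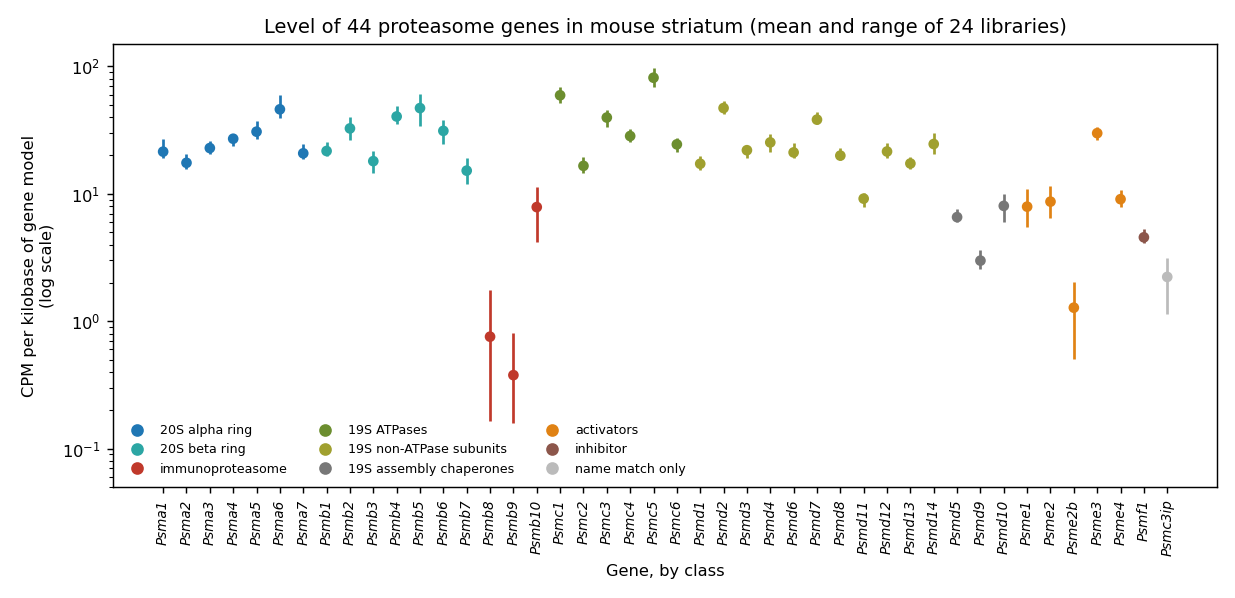
Mean level of each of the 44 genes over 24 libraries in CPM per kilobase of gene model (log axis), coloured by class, with vertical lines from the lowest to the highest library. Psmb8 and Psmb9 lie below all the other genes, and their libraries spread over the widest relative range.

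Core and 19S genes varied little between animals. The biological coefficient of variation within genotype, the spread left after counting error, had a median of 7.97% over the 34 core, 19S and 19S-chaperone genes (6.53% to 12.2%), against 8.60% over the 5547 genes tested whose mean was at or above the lowest core gene (39.3 CPM) and 14.7% over all genes tested. It was 20.7% for Psmb10, 32.1% for Psmb8 and 33.4% for Psmb9. One library stood apart in this group: Q175 replicate 4, a female, had the highest level of all 24 libraries in 26 of the 34 genes. The 14 core genes summed to 1017 CPM there, against 779 to 893 CPM in the other 5 Q175 libraries and 807 to 869 CPM in WT.

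The gene that changed most was Psme1 (ENSMUSG00000022216, chromosome 14, 55578123 to 55581529, plus strand, in the coordinates of the deposited table, which match the mouse build GRCm38). It encodes the alpha subunit of PA28. Its level was 12.6 to 14.8 CPM in WT with a median of 13.7, and 18.5 to 22.9 CPM in Q175 with a median of 21.3. Without Tyrobp it was 12.2 to 16.3 CPM (median 14.7) in TyrobpKO and 18.0 to 23.9 CPM (median 20.7) in Q175_TyrobpKO. Each of the 12 carriers of the allele was above each of the 12 non-carriers, and no other member separated the carriers in this way. Over all genes tested, carriers and non-carriers did not overlap in 1.14%, and 18.0% were called between them.

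Psme2 encodes the beta subunit of PA28 and lies next to Psme1 (ENSMUSG00000079197, chromosome 14, 55587441 to 55591113, minus strand), with 5911 bases between them. Its level was 12.2 to 16.2 CPM in WT (median 14.05) and 13.1 to 20.4 CPM in Q175 (median 17.3), ranges that overlap. In TyrobpKO it was 11.3 to 14.3 CPM (median 13.2) and in Q175_TyrobpKO 14.1 to 18.8 CPM (median 17.6), where 1 library, replicate 1, reached down into the TyrobpKO range.

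The windows around the starts of these neighbouring genes are shown because both genes were called between carriers and non-carriers and because PA28 is known as interferon-inducible. Each runs from 250 bases before the RefSeq start to 50 after it, 5′ to 3′ on the gene's strand, in GRCm38.p6: chr14:55578244-55578543 on the plus strand for Psme1 and chr14:55591052-55591351 on the minus strand for Psme2. Capitals mark the match to the core of a site for interferon regulatory factors, searched as GAAANNGAA on both strands.
Psme1: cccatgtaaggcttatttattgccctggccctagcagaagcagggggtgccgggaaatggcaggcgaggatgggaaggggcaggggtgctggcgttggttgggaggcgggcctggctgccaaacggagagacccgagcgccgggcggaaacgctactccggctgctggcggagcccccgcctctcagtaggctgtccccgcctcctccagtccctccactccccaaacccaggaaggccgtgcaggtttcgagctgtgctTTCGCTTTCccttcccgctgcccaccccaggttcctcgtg
Psme2: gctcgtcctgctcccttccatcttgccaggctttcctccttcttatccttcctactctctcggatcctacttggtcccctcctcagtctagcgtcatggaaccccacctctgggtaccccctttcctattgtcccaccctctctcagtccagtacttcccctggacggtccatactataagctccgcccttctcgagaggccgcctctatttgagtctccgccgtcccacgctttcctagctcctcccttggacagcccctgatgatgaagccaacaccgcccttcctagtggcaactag
Psme1 held 1 match, TTCGCTTTC, the motif read on the opposite strand, 10 bases after the start, and Psme2 held none in this window.

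RefSeq windows were found for 38 of the 44 members. The interferon regulatory factor core was in 6 of these genes (Psmb3, Psmb4, Psmc2, Psmd4, Psmd9 and Psme1) and in 8.56% of the 32851 windows of all genes. The core of the antioxidant response element, TGACNNNGC, was in 6 members (Psmb5, Psmb6, Psmc6, Psmd9, Psmd12 and Psme4) and 12.4% of all windows. These are matches of letters on either strand and show no binding.

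The first question was what the Q175 allele changed where Tyrobp is present. Of the 44 genes, 2 were called in Q175 against WT at an adjusted p under 0.05, both higher, against a background of 9.63% of all genes called and 4.15% called higher. Psme1 rose 1.55-fold, a log2 fold change of 0.63 ± 0.078 (SE), with an adjusted p of 3.07e-06 in edgeR's quasi-likelihood test. Psma1, a subunit of the alpha ring, rose 1.13-fold, a log2 fold change of 0.17 ± 0.054 with an edgeR adjusted p of 0.0371. Psme2 was 1.21-fold higher, with a log2 fold change of 0.28 ± 0.096, and did not pass (edgeR adjusted p = 0.0632). DESeq2 called it at 0.0474.

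The same question was then asked in animals without Tyrobp, where carriers and non-carriers share a label prefix. In Q175_TyrobpKO against TyrobpKO the 2 PA28 genes were called, and no other member, against 5.86% of all genes and 2.78% called higher. Psme1 rose 1.43-fold (log2 fold change 0.51 ± 0.078, edgeR adjusted p = 0.000102). Psme2 rose 1.34-fold (log2 fold change 0.42 ± 0.096, edgeR adjusted p = 0.00796). In males alone neither passed, with log2 fold changes of 0.47 and 0.30 and edgeR adjusted p of 0.0554 and 0.436. Females alone gave 0.56 for Psme1, which was called, and 0.54 for Psme2 at an edgeR adjusted p of 0.0515, which was not.

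**Figure D2:**
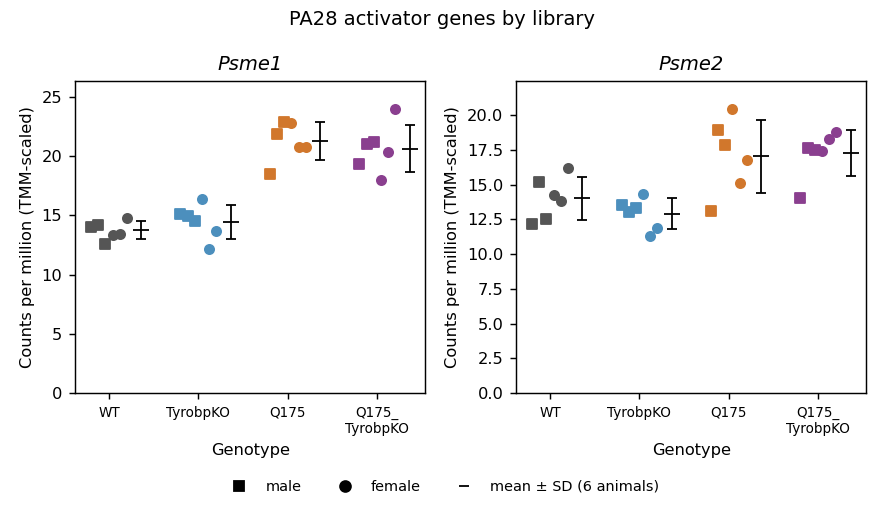
Psme1 and Psme2 in CPM (TMM-scaled) in each of 24 libraries by genotype, with squares for males, circles for females and the mean ± SD of 6 animals at the right of each group. Psme1 lies at 18.0 to 23.9 CPM in all carriers of the Q175 allele and at 12.2 to 16.3 in all others, while for Psme2 the genotypes overlap.

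The average of both effects of the allele, 12 carriers against 12 non-carriers, gave 5 called members, all higher, against 18.0% of all genes called and 8.85% called higher. Psme1 rose 1.49-fold (log2 fold change 0.57 ± 0.055, edgeR adjusted p = 1.57e-08) and Psme2 1.27-fold (0.35 ± 0.068, edgeR adjusted p = 0.000480). The other 3 rose by less: Psma1 1.09-fold (edgeR adjusted p = 0.0282), the lid subunit Psmd11 1.09-fold (0.0318) and the lid subunit Psmd6 1.07-fold (0.0438). These 3 calls, though not the size of the differences, depended on single animals: without each library in turn the log2 fold changes were 0.10 to 0.14 for Psma1, 0.11 to 0.14 for Psmd11 and 0.09 to 0.12 for Psmd6. Psma1 and Psmd11 were lost, among others, without Q175 replicate 4, and then only the PA28 genes were called. Psmd6 was called in 10 of the 24 fits that each left out 1 library.

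Psma1 shows how small these differences were beside the spread. Its level was 56.8 to 63.3 CPM in WT and 59.9 to 79.0 CPM in Q175, with medians of 60.1 and 65.0. In TyrobpKO it was 59.0 to 64.6 CPM (median 61.3) and in Q175_TyrobpKO 60.3 to 67.3 CPM (median 64.8). The ranges overlapped in both comparisons. Its call in Q175 against WT was lost without any of WT replicates 1, 2, 3 and 6 or Q175 replicates 4 and 5, with an adjusted p of up to 0.110 in edgeR.

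The other activators were not called in any comparison. Psme3 was 77.3 to 98.1 CPM in WT and 81.8 to 98.7 in Q175, a log2 difference of 0.05 with a 95% interval from -0.06 to 0.16. For Psme4 the log2 difference was 0.03, with an interval from -0.09 to 0.16. Both intervals lie below the value for Psme1. Psme2b is an intronless near-copy of Psme2 on chromosome 11, and reads can be split between such copies; at a mean of 1.07 CPM its values are uncertain. Whether the PA28 genes differed from Psme3 or Psme4 in their response was not tested as a contrast of genes.

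Because use of strand in the counting is not given in the sources used here, genes that overlap were checked. The end of Psme1 shares 14 bases with Emc9 on the other strand, and Emc9 was not called (log2 fold change -0.04 for the Q175 allele with Tyrobp and 0.07 without it). Rnf31, which starts 594 bases beyond Psme2 and encodes a ubiquitin ligase of the linear chain assembly complex, had a log2 fold change of 0.12 in Q175 against WT (edgeR adjusted p = 0.236) and rose by 0.28 in Q175_TyrobpKO against TyrobpKO (edgeR adjusted p = 0.00390). Irf9, the next gene along, was not called, at -0.05 and -0.07. In all, the spans of 23 of the 44 members overlap another gene.

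Markers of several cell types moved with the Q175 allele as well, and their part in the Psme1 difference was not tested. Astrocyte markers summed to 4704 to 5138 CPM in WT and 3764 to 4519 in Q175, and to 4843 to 5262 in TyrobpKO and 3952 to 4302 in Q175_TyrobpKO, with no overlap in either comparison. Of 8 astrocyte markers, 3 were called lower in each comparison, and 1 was called higher in Q175 against WT. Of 10 projection neuron markers, 9 were called lower with Tyrobp and 4 without it, and of 6 endothelial markers 1 was called lower in each. Of 7 oligodendrocyte markers 2 were called lower without Tyrobp and 0 with it, and of 5 choroid plexus markers 2 were called higher with Tyrobp and 0 without it. Psme1 in Q175 against WT was 0.61 without Q175 replicate 3, the library with the most choroid plexus RNA, and 0.61 without Q175 replicate 4. None of the 10 microglial markers was called in either effect of the Q175 allele, and their summed level was 357 to 498 CPM in TyrobpKO and 388 to 476 in Q175_TyrobpKO. WT replicate 3, the WT animal that shares its label prefix with the Q175 group, had 12.6 CPM of Psme1, the lowest WT value. With 1 such animal, prefix and genotype cannot be told apart in Q175 against WT, and the part of the prefix was not tested.

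The 3 immunoproteasome genes were not called in any comparison. Psmb8, the counterpart of the chymotrypsin-like site of Psmb5 (ENSMUSG00000024338, chromosome 17, 34197721 to 34201454), was 0.452 to 2.64 CPM in WT and 1.32 to 2.68 CPM in Q175, with medians of 1.68 and 2.27. It was 1.29 to 3.28 CPM in TyrobpKO and 1.62 to 4.83 CPM in Q175_TyrobpKO, with medians of 1.64 and 2.17. The ranges overlapped throughout. These levels rest on 12 to 133 reads per library.

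The log2 fold change of Psmb8 was 0.35 ± 0.28 in Q175 against WT (edgeR adjusted p = 0.513) and 0.47 ± 0.28 in Q175_TyrobpKO against TyrobpKO (edgeR adjusted p = 0.398). In carriers against non-carriers it was 0.41 with a 95% interval from 0.02 to 0.80 (edgeR adjusted p = 0.166). That interval holds the value for Psme1, so a rise of that size is not excluded for Psmb8.

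Psmb9, the counterpart of the caspase-like site of Psmb6 (ENSMUSG00000096727, chromosome 17, 34181988 to 34187764), was 0.640 to 2.61 CPM in WT and 0.968 to 1.70 CPM in Q175. It was 0.812 to 2.09 CPM in TyrobpKO and 0.582 to 2.98 CPM in Q175_TyrobpKO. Its log2 fold changes for the Q175 allele were 0.18 ± 0.30 with Tyrobp and 0.32 ± 0.30 without it, edgeR adjusted p 0.793 and 0.635. Psmb9 overlaps Tap1 on the other strand. In WT the 3 males had 0.640 to 0.817 CPM of Psmb9 and the 3 females 1.37 to 2.61, but the sexes overlapped in the other genotypes.

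Psmb10, the counterpart of the trypsin-like site of Psmb7 (ENSMUSG00000031897, chromosome 8, 105935735 to 105938444), was the most abundant of the 3. It was 7.08 to 15.5 CPM in WT (median 11.2), 11.9 to 17.1 CPM in TyrobpKO (14.6), 11.0 to 16.1 CPM in Q175 (12.01) and 10.9 to 19.1 CPM in Q175_TyrobpKO (14.7). Its largest difference was in TyrobpKO against WT, a log2 fold change of 0.39 ± 0.18 at an unadjusted p of 0.0354 in edgeR and an adjusted p of 0.749. For the Q175 allele its log2 fold change was 0.19 with Tyrobp and 0.00 without it. Markers of cortical excitatory neurons summed to 37.9 to 624 CPM in WT (median 411) and 400 to 859 in TyrobpKO (median 615). They summed to 14.4 to 725 CPM in Q175 (median 264) and 12.1 to 823 in Q175_TyrobpKO (median 485). None of these 5 markers was called in TyrobpKO against WT, and the part of cortical tissue in the Psmb10 difference was not tested.

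**Figure D3:**
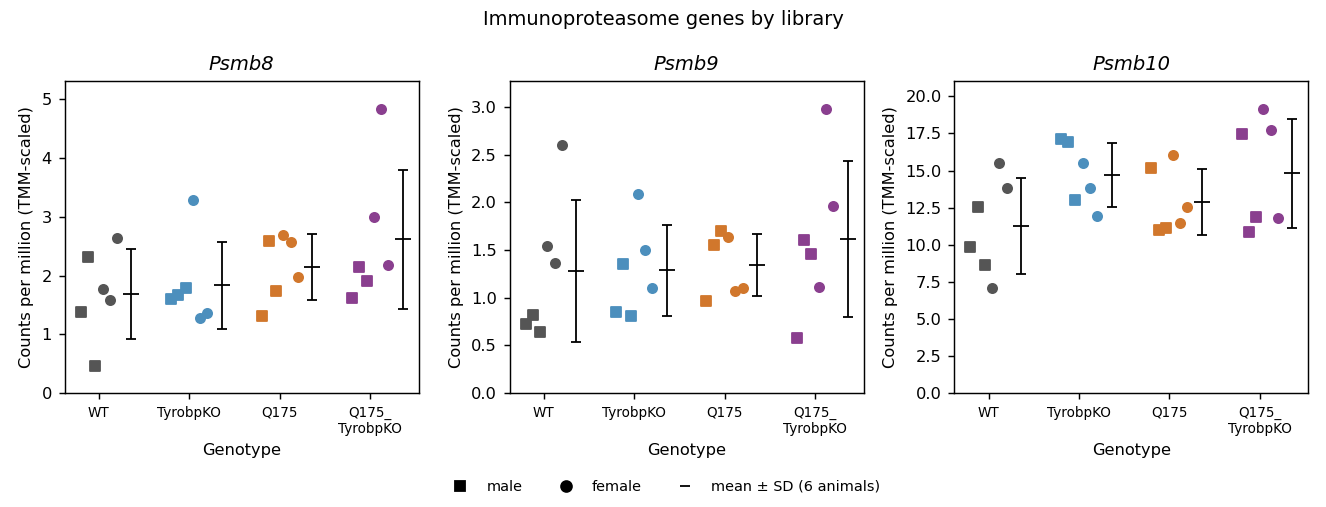
Psmb8, Psmb9 and Psmb10 in CPM (TMM-scaled) in each of 24 libraries by genotype, with squares for males, circles for females and the mean ± SD of 6 animals at the right of each group. The ranges of the 4 genotypes overlap for each gene.

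Since each inducible subunit takes the place of a constitutive one, their ratio per kilobase was compared too. In WT the median level of Psmb8 was 1.41% of Psmb5, that of Psmb9 was 0.917% of Psmb6, and that of Psmb10 was 39.9% of Psmb7. In Q175 they were 1.75%, 1.19% and 47.2%, in TyrobpKO 1.35%, 1.08% and 61.8%, and in Q175_TyrobpKO 1.62%, 1.39% and 52.4%. The means of the constitutive partners over the 4 genotypes were 40.2 to 46.7 CPM for Psmb5, 56.7 to 59.3 for Psmb6 and 48.5 to 54.6 for Psmb7. None of 12 comparisons of the log2 ratio passed a 2-sided exact permutation test after adjustment over the 12. The smallest p was for Psmb10 to Psmb7 in TyrobpKO against WT, a log2 difference of 0.48 with an exact p of 0.0173, adjusted to 0.208. The smallest p these groups allow is 0.00216. The other 11 adjusted values were 0.757 to 0.877.

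The constitutive core and the 19S particle differed little between the 4 genotypes. In Q175 against WT the log2 fold changes of these 34 genes lay between -0.06 and 0.17, and their 95% intervals between -0.25 and 0.28, that is, between 15.7% lower and 21.5% higher. Psma1 was called among them. The median of the 14 core genes was 0.07 and that of the 20 genes of the 19S particle and its chaperones 0.08, against 0.002 over the 5547 genes tested at similar levels. Of all 44 members, 40 had a positive sign, as did 51.5% of all genes tested.

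Small differences within overlapping ranges were also seen for the lid subunits called between carriers and non-carriers. Psmd11 (ENSMUSG00000017428, chromosome 11, 80428615 to 80473248) was 50.4 to 61.3 CPM in WT, 51.5 to 62.3 in TyrobpKO, 54.6 to 65.2 in Q175 and 57.4 to 65.3 in Q175_TyrobpKO. Psmd6 (ENSMUSG00000021737, chromosome 14, 14112174 to 14120984) was 53.0 to 59.1 CPM in WT, 55.4 to 61.3 in TyrobpKO, 57.8 to 69.9 in Q175 and 56.5 to 66.5 in Q175_TyrobpKO. For both genes the carriers overlapped the non-carriers. The lid is the part of the 19S particle that removes ubiquitin chains.

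By ring and subcomplex, the Q175 allele in animals with Tyrobp gave a positive sign in 7 of 7 alpha subunits, 6 of 7 beta subunits, 4 of 6 ATPases, 11 of 11 other 19S subunits and 2 of 3 chaperones. Their median log2 fold changes were 0.07, 0.06, 0.09, 0.08 and 0.04. In animals without Tyrobp the signs were positive in 6 of 7, 6 of 7, 3 of 6, 8 of 11 and 3 of 3, with medians of 0.02, 0.07, 0.00, 0.06 and 0.01. Beside Psma1, 7 of the 34 genes had an unadjusted p under 0.05 in Q175 against WT in edgeR without passing the adjustment: the ATPases Psmc2, Psmc3 and Psmc4 and the subunits Psmd1, Psmd6, Psmd11 and Psmd12. Their log2 fold changes were 0.10 to 0.15. With Psma1 this makes 8 of 34, which is close to the share among all genes tested (4448 of 19667). It is below the share among those at similar levels (1679 of 5547). The ATPase Psmc3 was 87.2 to 103.3 CPM in WT and 98.6 to 119 in Q175, ranges that overlap.

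The shift to positive signs was smaller without 1 library and in males. Without Q175 replicate 4, 32 of 44 were positive and the median fell from 0.08 to 0.05, and in males alone 25 were positive with a median of 0.03, against 40 and 0.13 in females. Q175 replicate 4 is a female, so the fit in males also left it out and the fit in females kept it. A difference between the sexes was not tested. The genes with the smallest p by class after Psma1 were the ATPase Psmc3 (log2 fold change 0.15 ± 0.055, edgeR adjusted p = 0.0836), Psmd6 (0.14 ± 0.050, 0.0661), the beta subunit Psmb4 (adjusted p 0.429) and the 19S chaperone Psmd5 (0.270). Psmf1, which binds the core and inhibits it in vitro, was not called (log2 fold change 0.10, edgeR adjusted p = 0.363). Psmc3ip was at 0.06.

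**Figure D4:**
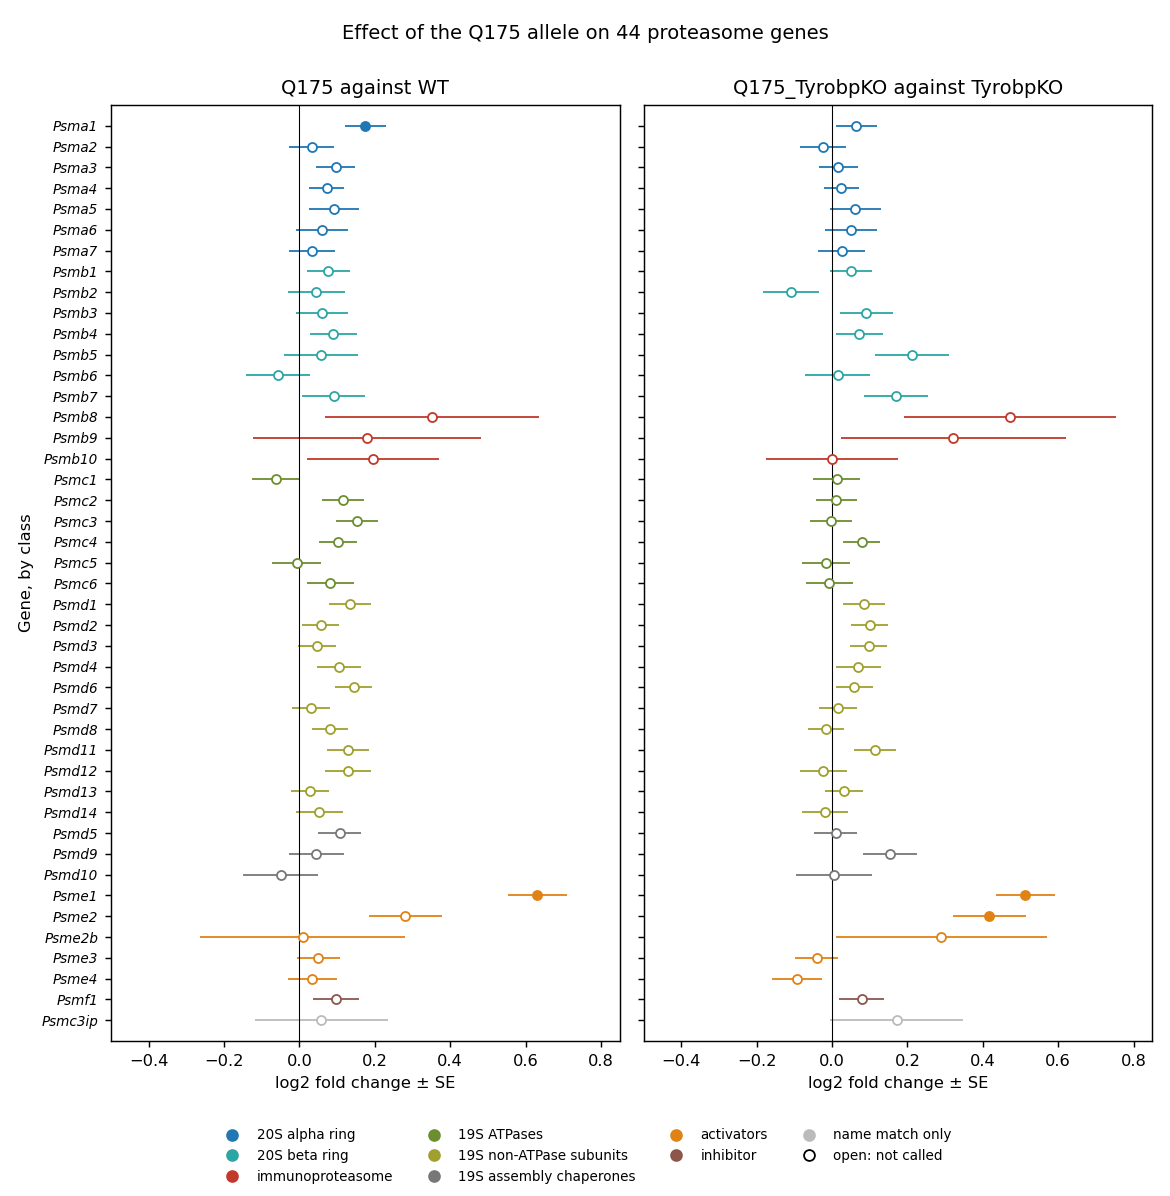
Log2 fold change ± SE of each of the 44 genes, ordered and coloured by class, for Q175 against WT (left) and Q175_TyrobpKO against TyrobpKO (right), with filled points for genes called at an adjusted p under 0.05. Psme1 stands out in both panels at 0.63 and 0.51, and Psme2 is called in the right panel.

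In animals without Tyrobp the same 34 genes lay between -0.11 and 0.21 on the log2 scale, with a median of 0.03, and none was called. Psmb5 had the largest value, 0.21 ± 0.099 (edgeR adjusted p = 0.243). The level of Psmb5 was 32.6 to 45.7 CPM in TyrobpKO and 43.7 to 53.3 CPM in Q175_TyrobpKO, ranges that overlap. Summed over the 14 core genes, the level was 807 to 869 CPM in WT (median 824), 810 to 889 in TyrobpKO (838), 779 to 1017 in Q175 (864) and 853 to 901 in Q175_TyrobpKO (866).

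For deletion of Tyrobp no member was called, in animals with or without the Q175 allele. In TyrobpKO against WT 0 of 44 were called, against 0.117% of all genes. At an unadjusted p under 0.05 in edgeR there were 3 of 44 (Psma4, Psmb10 and Psmd8), close to the share of all genes tested (1269 of 19667). In Q175_TyrobpKO against Q175 0 were called, against 0.158% of all genes. Psmd5 alone had an unadjusted p under 0.05 in edgeR, with a log2 fold change of -0.12. Of the 19667 genes tested, 1187 had such a p. DESeq2 also called 0 members in both. Members on chromosome 7, where Tyrobp lies, included Psmd8 at 1.24 Mb and Psmc4 at 2.37 Mb from its start, and neither was called. The median over the members in Q175_TyrobpKO against Q175 was 0.008 and became 0.07 without Q175 replicate 4.

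The Q175 effects with and without Tyrobp were compared directly by the interaction term. It called 0 members, and 0% of all genes, and no member had an unadjusted p under 0.05 in edgeR, against 707 of all genes tested. DESeq2 called 0 members as well. For Psme1 the interaction was -0.12 ± 0.11 on the log2 scale with a 95% interval from -0.33 to 0.10. For Psme2 it was 0.14 ± 0.14, with an interval from -0.13 to 0.40. These intervals do not show that the effects were equal. Across the 4 genotypes at once, 2 members were called, Psme1 and Psme2, against 11.8% of all genes.

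Genes that work with the proteasome were listed by role, and 42 of them were tested. Between carriers and non-carriers 9 were called, 7 higher and 2 lower, against 18.0% of all genes called. In Q175 against WT 4 were higher and 1 lower, against 9.63% of all genes called, and in Q175_TyrobpKO against TyrobpKO 3 were higher and 2 lower, against 5.86%. Deletion of Tyrobp called 0 of them in either comparison. In carriers against non-carriers the median over the list was 0.06, against 0.004 over all genes tested.

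The list of antigen processing genes, which share with PA28 the supply of peptides for MHC class I, had 3 of 10 called between carriers and non-carriers, all higher. Of all genes tested, 18.0% were called in this comparison and 8.85% were called higher. Erap1, the peptidase that trims these peptides in the endoplasmic reticulum, was 7.13 to 9.31 CPM in WT and 9.97 to 13.2 CPM in Q175, with no overlap. Without Tyrobp it was 7.57 to 9.37 CPM in TyrobpKO and 9.30 to 12.2 CPM in Q175_TyrobpKO, which overlap slightly. On the log2 scale Erap1 rose by 0.52 ± 0.095 in Q175 against WT (edgeR adjusted p = 0.000521) and by 0.35 ± 0.095 in Q175_TyrobpKO against TyrobpKO (edgeR adjusted p = 0.0242). The latter call was lost without any of TyrobpKO replicates 2, 5 and 6 or Q175_TyrobpKO replicates 2 and 4, with an adjusted p of up to 0.0731.

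Tapbp, which tethers MHC class I to the peptide transporter, rose by 0.22 between carriers and non-carriers (edgeR adjusted p = 0.00445). The MHC genes H2-K1 and H2-D1 had log2 fold changes of 0.24 and 0.30 (edgeR adjusted p 0.117 and 0.0875), and Tap1 and Tap2 of 0.38 and 0.25 (0.100 and 0.189). For Irf1 it was 0.07 and for B2m 0.11. None of these 6 passed. The median of the 10 genes was 0.27.

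Upstream of the proteasome, 3 of the 42 genes separated carriers from non-carriers without overlap, as did 1.14% of all genes tested. Vcp, the ATPase that extracts ubiquitin-tagged proteins from complexes and membranes, was 257 to 268 CPM in WT and 276 to 318 in Q175, and 250 to 268 in TyrobpKO and 281 to 297 in Q175_TyrobpKO. Uba1, the main ubiquitin-activating enzyme, was 290 to 310 CPM in WT and 314 to 344 in Q175, and 286 to 299.9 in TyrobpKO and 326 to 339 in Q175_TyrobpKO. Ubqln4, a shuttle that carries tagged proteins to the proteasome, went the other way, from 140.1 to 163.5 CPM in WT to 120.1 to 136 in Q175, and from 139 to 159.7 in TyrobpKO to 127 to 136 in Q175_TyrobpKO.

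Between carriers and non-carriers, the log2 level of Vcp rose by 0.17 ± 0.029 (edgeR adjusted p = 0.000170), Uba1 by 0.16 ± 0.028 (edgeR adjusted p = 0.000126) and Ubqln4 fell by 0.22 ± 0.036 (edgeR adjusted p = 7.29e-05). These 3 calls held in all 24 fits without 1 library. Taken alone, Q175 against WT also called all 3 genes in each of these fits, but Vcp and Uba1 were lost under some other alternatives. In Q175_TyrobpKO against TyrobpKO, Ubqln4 was called in 16 of the 24 fits, Vcp in 21 and Uba1 in 24. Ddi2, a protease that activates the transcription factor Nfe2l1, fell by 0.14 (edgeR adjusted p = 0.00890). The ligase Ube3c and the Vcp cofactor Nploc4 rose by 0.10 and 0.11 (edgeR adjusted p = 0.0411 and 0.0325), calls that held in 12 and 20 of the 24 fits without 1 library, with an adjusted p of up to 0.0821 and 0.0662. Nfe2l1, which drives the recovery of subunit genes when the proteasome is inhibited, was not called in any comparison. Nfe2l2, the factor of the oxidative stress response, rose by 0.34 in Q175 against WT (edgeR adjusted p = 0.0330), had 0.00 without Tyrobp, and was called in 17 of the 24 fits without 1 library. Its interaction was -0.34 (edgeR adjusted p = 0.999). None of the 5 genes of 20S assembly or the 2 subunits outside the prefixes, Adrm1 and Sem1, was called.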

How the data were processed

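RNA-seq of mouse striatum was measured in 24 libraries, and the authors deposited 1 table of raw read counts per gene with coordinates. The submitters' processing notes name STAR, featureCounts and DESeq2. They also name the human build GRCh38, while the gene identifiers and coordinates match mouse GRCm38 and 44 of 44 members were found in GENCODE M21, 43 with the same coordinates. Use of strand in the counting is not given in the sources used here.

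Counts were tested with edgeR 4.0.16 in R 4.3.3: TMM scaling, filterByExpr by genotype, and robust quasi-likelihood fits of genotype and sex to all 24 libraries. P-values were adjusted by Benjamini-Hochberg over 19667 genes, and a gene was called at an adjusted p under 0.05. The test was also run on simulated data, and the outcome is not given here. Levels are TMM-scaled CPM. Intervals are the estimate ± 1.96 SE. Ratios of subunits used a pseudocount of 0.5 reads and exact permutation tests. Promoter windows are from RefSeq, GRCm38.p6.

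The genes named are the members called in any comparison, the PA28 and immunoproteasome genes, the constitutive counterparts of the latter, the member with the smallest p of each class in Q175 against WT, and up to 10 called partner genes. Others named were chosen after their values were seen. Members and lists were chosen with earlier results of these data known. Replicates are separate animals. Alternatives were DESeq2 1.42.0, no filter, no sex term, each sex alone, only the 12 libraries compared, and leaving out each library. Library totals of 25482686 to 34626720 counts limit the precision of genes with few reads, such as Psme2b, Psmb9 and Psmb8. One gene of the partner list and one motif are not reported here.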

Additional observations from a re-analysis of the deposited data

Results flagged for a closer look

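Of 44 groups of 6 libraries (11 genes in 4 genotypes) examined for a library far from the others, 3 were picked out, and chance alone picks out about 1 in 20. Psme2 in Q175_TyrobpKO replicate 1 was 14.1 CPM, below the other 5 libraries of that genotype. Psmb8 in TyrobpKO replicate 4 was 3.28 CPM, above the other 5. Psmb6 in TyrobpKO replicate 3 was 56.3 CPM, below the other 5.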

How the results depend on the processing

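The count of members called in Q175 against WT, 2 as reported, was 4 with DESeq2 (Psma1, Psmd6, Psme1 and Psme2), 1 with no filter on low counts, 1 in males alone, 1 in females alone, 1 with only the 12 libraries compared, and 1 to 4 without each library in turn. In Q175_TyrobpKO against TyrobpKO, 2 as reported, it was 3 with only the 12 libraries compared, 0 in males, 1 in females and 2 in every fit without 1 library. Between carriers and non-carriers, 5 as reported, it was 6 with DESeq2, 6 with no sex term and 2 with no filter. It was 1 in males, 2 in females and 2 to 6 without 1 library. Across the 4 genotypes, 2 as reported, it was 1 in males, 1 in females and 2 to 3 without 1 library. Psme1 was called in all 24 fits without 1 library, at log2 fold changes of 0.61 to 0.67 in Q175 against WT, 0.46 to 0.56 in Q175_TyrobpKO against TyrobpKO and 0.55 to 0.60 between carriers and non-carriers. None of the 35 single-gene results recomputed under the alternatives changed direction. The sign of other members did, as the counts of positive members show. With group medians in place of means, the log2 ratio of Psmb8 to Psmb5 changed sign in TyrobpKO against WT (-0.0559) and in Q175_TyrobpKO against Q175 (-0.108). Without 1 library it ranged from -0.0505 to 0.359 and from -0.123 to 0.179, and that of Psmb9 to Psmb6 from -0.0506 to 0.308 and from -0.127 to 0.337. The cause was not tested. No paired analysis was possible because the labels carry no replicate numbers shared between genotypes.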
